A study of Glycine max with 24 samples.

Results

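CYP82A3 and CYP82A2 are soybean genes for cytochrome P450 enzymes of the CYP82A subfamily, and their transcripts were followed through root tips that met aluminium with or without magnesium. The members were every probe set that the array's name table pairs with 1 of these symbols and no other gene. That rule gave 4 probe sets for CYP82A3 and 3 for CYP82A2, so 2 genes of the 6031 genes with such a probe set, and all 7 probe sets lay above the signal filter described with the processing. The genes were chosen by log2 magnesium differences of these same arrays, since an earlier reading of them had shown CYP82A3 to be lower with magnesium. The magnesium differences of both genes, and the time differences that share arrays with them, are therefore descriptions without a test, while the genotype differences were tested.

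Cytochrome P450 enzymes are heme proteins that use molecular oxygen and electrons from a reductase to oxidise small molecules, and plants carry large families of them for hormones, lignin and defence compounds. CYP82A2 and CYP82A3 were cloned from soybean cells treated with a pathogen elicitor. Soybean CYP82A3 has since been reported to respond to Phytophthora infection, salt, drought and the hormones jasmonate and ethylene, and to raise disease resistance when overexpressed in Nicotiana benthamiana. Aluminium ions in acid solution stop root growth at the tip, and magnesium in the solution relieves this in soybean.

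The 24 arrays, Affymetrix soybean GeneChips, measured RNA of 1 cm root tips from plants in hydroponic culture. Every plant received 10 µM aluminium, so no group without aluminium was part of the comparison, and the amount of magnesium is not given in the labels. The 8 groups of 3 arrays were PI 416937 with aluminium plus magnesium for 72 h, PI 416937 with aluminium alone for 72 h, the cultivar Young with aluminium plus magnesium for 72 h, Young with aluminium alone for 72 h, and the same 4 combinations after 12 h. PI 416937, called PI from here on, carries the label aluminium-sensitive in the submitters' sample descriptions and Young carries the label tolerant, whereas the literature usually describes these lines the other way round. What a replicate was, a plant, a pool or a repeat of the experiment, is not stated in the labels, so the p-values cover only the spread between these arrays.

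Values are log2 intensities, on which 1 unit is a doubling, and levels of different probe sets are not compared with each other. Between 77.8% and 81.4% of the 37593 soybean probe sets lay above an array's bound, the level that 99% of the chip's probe sets for other organisms stay under. That bound was 2.72 to 3.10, and the correlation between arrays of a group was 0.981 to 0.994. None of the planned root marker symbols was in the name table. The leaf marker CAB3, the only leaf symbol there, was above the bound on all 24 arrays. Of 11 seed genes the trypsin inhibitor genes KTI-2 and KTI-3 were above it on all 24 arrays and the storage protein and other inhibitor genes on 0 to 3. Of 3 nodule genes ENOD40B was above it on 24 arrays, ENOD93 on 14 and ENOD55-2 on 4.

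CYP82A3 was low in root tips after 72 h with magnesium and at its highest after 72 h of aluminium alone. How near its low readings came to background differed between its probe sets, as given below. On the probe set Gma.3136.1.S1_at, which was designed to match 1 transcript, the PI arrays at 72 h read 3.54, 2.29 and 5.26 with aluminium plus magnesium and 13.72, 13.86 and 12.61 with aluminium alone. The Young arrays at 72 h read 2.81, 3.40 and 4.46 with aluminium plus magnesium and 11.69, 13.60 and 13.98 with aluminium alone. Every array with magnesium thus lay far below every array without it, in both genotypes, and 1 PI array with magnesium was at its background bound. At 12 h the PI arrays read 10.31, 11.62 and 12.12 with aluminium plus magnesium and 12.16, 10.94 and 11.46 with aluminium alone. The Young arrays at 12 h read 9.16, 8.01 and 9.74 with aluminium plus magnesium and 7.92, 9.82 and 9.54 with aluminium alone. At this earlier time the treatments overlapped within each genotype, and all 6 PI arrays lay above all 6 Young arrays. In whole root tips, fewer cells that express a gene and less RNA per cell cannot be told apart.

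CYP82A2 showed the same shape over the groups. On its probe set designed for 1 transcript, Gma.153.1.S1_at, the PI arrays at 72 h read 2.91, 2.62 and 3.17 with aluminium plus magnesium and 12.98, 13.31 and 12.33 with aluminium alone. The Young arrays at 72 h read 2.85, 2.93 and 4.28 with aluminium plus magnesium and 11.87, 13.02 and 13.00 with aluminium alone. The groups were again far apart, and 2 of the 3 PI arrays with magnesium were at background. At 12 h the PI arrays read 10.04, 8.65 and 10.38 with aluminium plus magnesium and 10.59, 8.86 and 9.11 with aluminium alone. The Young arrays at 12 h read 8.66, 7.65 and 9.09 with aluminium plus magnesium and 8.28, 7.35 and 8.76 with aluminium alone. The treatments overlapped at 12 h, and the genotypes overlapped with aluminium plus magnesium but not with aluminium alone.

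**Figure D1:**
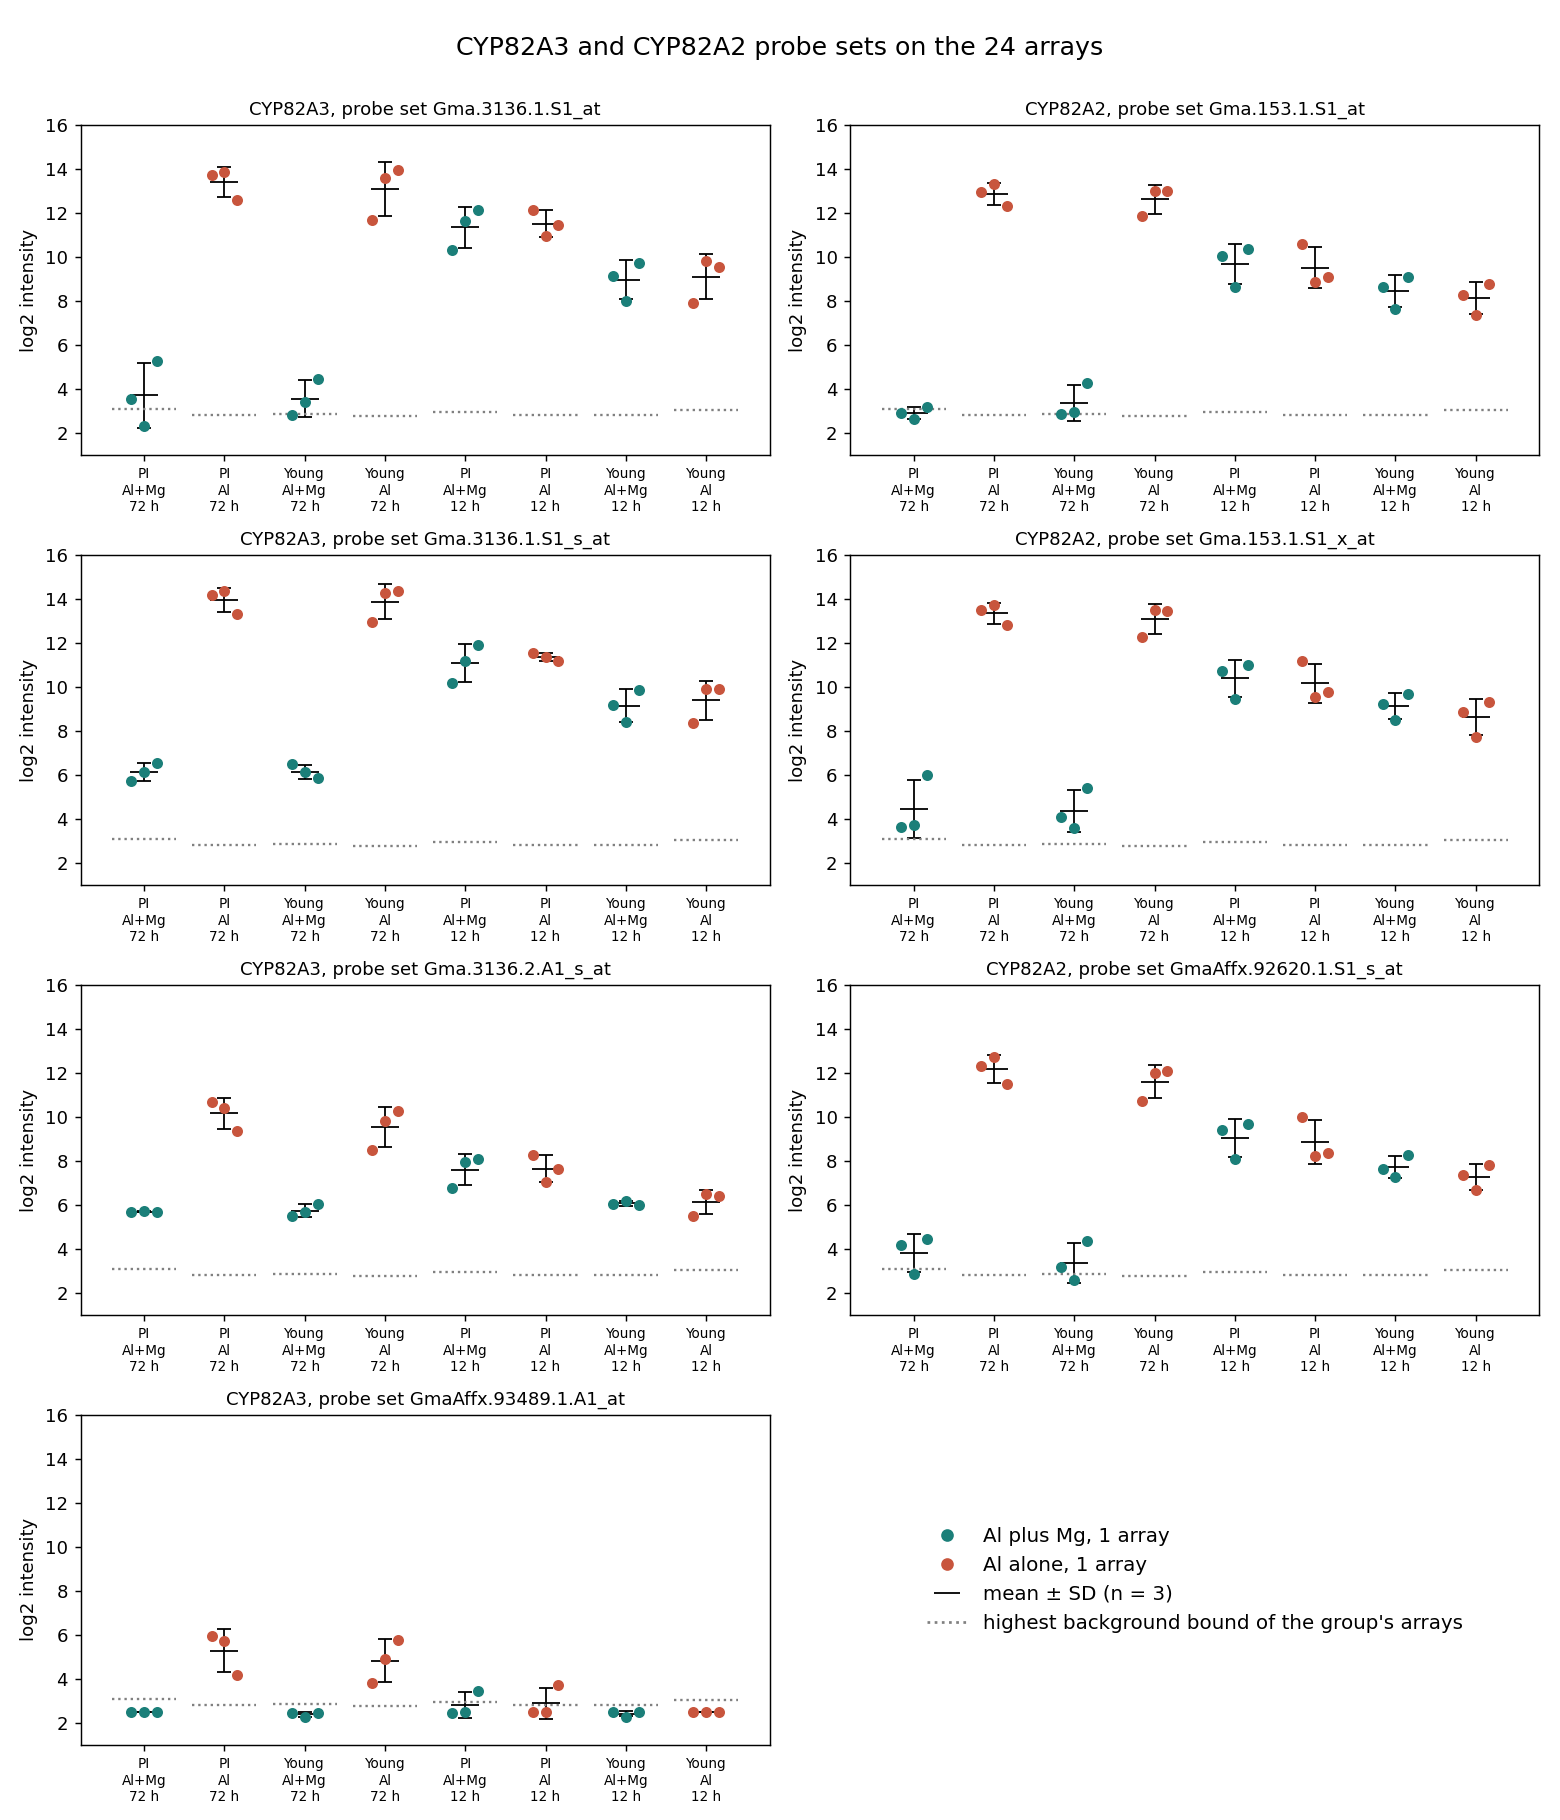
Log2 intensity (vertical axes) of the 4 CYP82A3 and 3 CYP82A2 probe sets on the 24 arrays, by group (horizontal axes, PI for PI 416937); points are arrays, bars are the mean ± SD of 3 arrays, and dotted lines mark the highest background bound among a group's arrays. At 72 h the groups with magnesium lie low and those with aluminium alone lie highest, while at 12 h the treatments overlap for every probe set.

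The other probe sets of each gene share its transcript and are not replicates of a condition. Gma.3136.1.S1_s_at and Gma.3136.2.A1_s_at for CYP82A3 and GmaAffx.92620.1.S1_s_at for CYP82A2 carry a suffix for probes that can match related transcripts, and some probes of Gma.153.1.S1_x_at can match unrelated ones. CYP82A3 on Gma.3136.1.S1_s_at averaged 6.14 ± 0.41 with aluminium plus magnesium and 13.96 ± 0.55 with aluminium alone in PI at 72 h (SD, n = 3 each). In Young at 72 h it averaged 6.15 ± 0.32 with aluminium plus magnesium and 13.88 ± 0.80 with aluminium alone. Its floor at 72 h with magnesium was therefore well above background. So was that of Gma.3136.2.A1_s_at, at 5.69 in PI and 5.74 in Young. On Gma.3136.1.S1_at the means of these groups were lower, at 3.70 in PI and 3.56 in Young, with 1 PI array at background. GmaAffx.93489.1.A1_at, the faintest CYP82A3 probe set, was also designed to match 1 transcript. It was at background on all 6 arrays with magnesium at 72 h and on all 6 Young arrays at 12 h. It reached 5.93 in PI and 5.75 in Young with aluminium alone at 72 h. Across the 8 group means, the CYP82A3 probe sets spanned 2.89 to 9.84 log2 units and the CYP82A2 probe sets spanned 8.82 to 9.98.

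The order of the groups was alike for both genes at its ends and differed in the middle. For CYP82A3 on Gma.3136.1.S1_at the lowest means were those with magnesium at 72 h, 3.70 in PI and 3.56 in Young. The 12 h means lay between, at 11.35 with and 11.52 without magnesium in PI and at 8.97 with and 9.09 without magnesium in Young, and the highest means were 13.40 in PI and 13.09 in Young with aluminium alone at 72 h. Neighbours in the order of these 8 means overlapped except at the step between PI and Young at 12 h and at the step down to the 72 h groups with magnesium. For CYP82A2 on Gma.153.1.S1_at the lowest means were 2.90 in PI and 3.35 in Young with magnesium at 72 h. Its 12 h means were 9.69 with and 9.52 without magnesium in PI and 8.47 with and 8.13 without magnesium in Young, and the highest were 12.88 in PI and 12.63 in Young with aluminium alone at 72 h. Here the neighbouring groups overlapped throughout the 12 h range, and only the steps at its upper and lower end were free of overlap.

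At 72 h both genes were far lower with aluminium plus magnesium than with aluminium alone. On Gma.153.1.S1_at, CYP82A2 had a log2 difference of −9.78 or lower in PI with arrays at background set to their bound, at least 877-fold lower with magnesium. In Young it was −9.28 ± 0.57 (SE), or 620-fold lower. CYP82A3 on Gma.3136.1.S1_at had a difference of −9.43 or lower in PI, at least 689-fold, and of −9.54 ± 0.79 in Young, 743-fold lower. The other CYP82A2 probe sets differed by −8.92 and by −8.28 or lower in PI, and by −8.73 and by −8.17 or lower in Young. The other CYP82A3 probe sets differed by −7.82 and −4.47 in PI and by −7.73 and −3.80 in Young, and the faint one by at least 4.74-fold in PI and at least 4.02-fold in Young. The median of the 7 fitted differences was −8.36 in PI and −8.24 in Young, beside 0.06 and 0.03 over all soybean probe sets. All 7 probe sets were lower with magnesium without overlap in PI, where 15.0% of all soybean probe sets were, and in Young, where 19.9% were. The members were chosen with these differences known, so nothing is read from those counts.

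RNA quality signals differed between the same groups by unequal amounts. The chip carries quality probe sets for a soybean cytochrome P450 transcript at its 3′ and 5′ end, and the log2 difference of the 3′ over the 5′ signal at 72 h averaged 4.12 ± 0.25 in PI with aluminium plus magnesium and 2.51 ± 0.36 with aluminium alone (SD, n = 3 each). In Young at 72 h it averaged 3.80 ± 0.16 with aluminium plus magnesium and 2.26 ± 0.37 with aluminium alone. At 12 h, where CYP82A2 and CYP82A3 overlapped between treatments, it averaged 2.82 with and 2.95 without magnesium in PI, and 2.98 with and 3.09 without magnesium in Young. The 3′ signal itself averaged 15.29 to 15.60 in the 8 groups. The 3′ over the middle signal of the same transcript at 72 h averaged 1.73 with magnesium and 1.52 with aluminium alone in PI, and 1.55 with magnesium and 1.37 with aluminium alone in Young. For actin at 72 h, the 3′ over the 5′ signal averaged 8.41 with magnesium and 7.99 with aluminium alone in PI, and 8.41 with magnesium and 7.88 with aluminium alone in Young. The actin 3′ signal at 72 h averaged 13.15 with magnesium and 12.19 with aluminium alone in PI, and 12.97 with magnesium and 11.88 with aluminium alone in Young.

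Markers of other tissues moved with some of these groups too. The summed intensity of the seed genes at 72 h was 28457 to 42911 with magnesium and 20377 to 27491 with aluminium alone in PI, and 40285 to 43949 with magnesium and 21699 to 35188 with aluminium alone in Young, without overlap in either. These sums rested on the trypsin inhibitor genes KTI-2 and KTI-3, the only 2 of the 11 seed genes above the bound on more than 3 arrays. The storage protein genes were at or near background. At 12 h the seed sums overlapped between the treatments. CAB3 at 72 h was at 486 to 1155 with magnesium and 157 to 410 with aluminium alone in Young, and overlapped in PI, at 992 to 1799 with magnesium and 1019 to 1662 with aluminium alone. The sums of the nodule genes overlapped between the treatments at 72 h. The part of the quality signals and of these markers in the CYP82A differences was not tested.

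At 12 h the differences with magnesium were within the spread between arrays for both genes. The 4 CYP82A3 probe sets had log2 differences of −0.27 to −0.04 in PI and −0.23 to −0.05 in Young. The 3 CYP82A2 probe sets had differences of 0.17 to 0.23 in PI and 0.33 to 0.50 in Young. The standard errors of these values were 0.45 to 0.79, larger than most of the differences. All 7 probe sets overlapped between the treatments in both genotypes, whereas over the whole chip 5.21% of soybean probe sets were lower and 4.32% higher with magnesium without overlap in PI, and 9.39% were lower and 5.92% higher in Young.

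Seen along time, each gene moved in opposite directions with and without magnesium. With aluminium plus magnesium, CYP82A3 on Gma.3136.1.S1_at was lower at 72 h than at 12 h by a log2 difference of −7.38 or lower in PI and −5.41 in Young. CYP82A2 on Gma.153.1.S1_at was lower at 72 h by −6.59 or lower in PI and −5.11 in Young. With aluminium alone, CYP82A3 on that probe set was higher at 72 h by 1.88 in PI and 3.998 in Young, and CYP82A2 by 3.36 in PI and 4.50 in Young. Without overlap between the times, 6 of the 7 probe sets were lower at 72 h in PI with magnesium, beside 25.4% of all soybean probe sets, and 5 of 7 in Young, beside 22.4%. With aluminium alone all 7 were higher without overlap at 72 h in PI, beside 19.7%, and in Young, beside 21.5%. These differences use the same 72 h arrays as the magnesium differences and add no independent evidence to them.

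Genotype was not used to choose the genes and was tested with limma over all 37593 soybean probe sets. CYP82A3 was higher in PI than in Young over the 4 conditions together. The averaged PI minus Young difference was 1.31 ± 0.39 (SE) on Gma.3136.1.S1_at (limma adjusted p = 0.0205, 95% interval 0.48 to 2.15), 0.99 ± 0.25 on Gma.3136.1.S1_s_at (adjusted p = 0.0083) and 0.91 ± 0.23 on Gma.3136.2.A1_s_at (adjusted p = 0.00677). The faint CYP82A3 probe set, with a difference of 0.34, did not pass (adjusted p = 0.313). For CYP82A2 the difference was 0.99 ± 0.31 on GmaAffx.92620.1.S1_s_at (adjusted p = 0.0246), while 0.60 on Gma.153.1.S1_at (adjusted p = 0.138) and 0.79 on Gma.153.1.S1_x_at (adjusted p = 0.0991) did not pass. So 4 of the 7 probe sets passed, all higher in PI, beside 12.7% of all soybean probe sets that passed in that direction and 25.5% in either. The median of the 7 differences was 0.91, beside 0.01 over all soybean probe sets.

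By condition, the probe sets that passed did so at 12 h. With aluminium alone at 12 h, CYP82A3 on Gma.3136.1.S1_s_at read 11.54, 11.36 and 11.17 in PI and 8.37, 9.91 and 9.89 in Young. With aluminium plus magnesium at 12 h it read 10.17, 11.17 and 11.93 in PI and 9.18, 8.42 and 9.88 in Young. In each treatment every PI array was above every Young array, and the differences were 1.96 ± 0.51 with aluminium alone (limma adjusted p = 0.0357) and 1.93 ± 0.51 with magnesium (adjusted p = 0.0189). Gma.3136.2.A1_s_at passed with magnesium at 1.53 (adjusted p = 0.0328) but not with aluminium alone at 1.52 (adjusted p = 0.0731). The faint CYP82A3 probe set GmaAffx.93489.1.A1_at, also for 1 transcript, passed in neither treatment. It differed by 0.41 with aluminium alone (limma adjusted p = 0.789) and by 0.40 with magnesium (adjusted p = 0.665). Gma.3136.1.S1_at, the brighter CYP82A3 probe set for 1 transcript, had the largest estimates of the 7. They were 2.43 ± 0.79 with aluminium alone (adjusted p = 0.103) and 2.38 ± 0.79 with magnesium (adjusted p = 0.0539), and Gma.3136.1.S1_at missed the threshold in both. With magnesium it passed under 4 other settings (limma adjusted p = 0.0249 to 0.0435), namely a replicate block, the signal filter, an offset before log2 and arrays at background set to their bound, and with aluminium alone under the offset (adjusted p = 0.0462). The CYP82A2 probe sets had differences of 1.39 to 1.60 with aluminium alone and 1.22 to 1.33 with magnesium at 12 h, with limma adjusted p of 0.166 to 0.267. None of the 3 passed, and at an unadjusted p under 0.05 the count was 2 with magnesium and 3 with aluminium alone. No share of all soybean probe sets at that unadjusted threshold stands beside these counts, so nothing is read from them.

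In counts, 2 of the 7 probe sets passed with aluminium plus magnesium at 12 h, beside 6.02% of soybean probe sets higher in PI, and 1 of 7 with aluminium alone at 12 h, beside 2.10%. Without overlap, 3 of 7 were higher in PI with magnesium, beside 17.8% of all, and 6 of 7 with aluminium alone, beside 9.36%. These single-condition calls rested on few arrays. The count with magnesium was 0 without PI replicate 2 or 3 or without Young replicate 1 or 2 of that condition, and 3 without PI replicate 1. The count with aluminium alone was 0 without PI replicate 1, 2 or 3 or without Young replicate 1 or 2. With only the arrays compared in the fit, both counts were 0. The averaged difference kept 4 passing probe sets when any 1 of the 24 arrays was left out.

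Some markers of other tissues and some RNA quality signals also differed between the genotypes at 12 h. CAB3 was at 60.5 to 75.0 in PI and 85.0 to 154 in Young with aluminium plus magnesium, and at 60.7 to 93.0 in PI and 110 to 114 in Young with aluminium alone. The summed nodule genes were at 26.01 to 39.4 in PI and 61.3 to 82.1 in Young with aluminium plus magnesium, and at 30.4 to 58.0 in PI and 61.3 to 120 in Young with aluminium alone. Both were thus lower in PI without overlap, the direction opposite to that of CYP82A3, and their part in the genotype differences was not tested.

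At 72 h none of the 7 probe sets passed between the genotypes in limma, and 0 had an unadjusted p under 0.05 in either treatment. With aluminium plus magnesium the differences were −0.45 to 0.45, where 9.83% of soybean probe sets passed in either direction. On Gma.3136.1.S1_at the CYP82A3 difference was 0.14 (limma adjusted p = 0.959), and its 95% interval of −1.52 to 1.80 still holds sizeable differences either way. With aluminium alone the differences were 0.08 to 0.62, where 12.6% of soybean probe sets passed, with 0.31 for CYP82A3 on the same probe set (adjusted p = 0.934) and 0.25 for CYP82A2 on Gma.153.1.S1_at (adjusted p = 0.917). The change of the genotype difference between the times, 72 h minus 12 h, was a test added after the values were seen. It was −2.24 ± 1.11 with magnesium (adjusted p = 0.303) and −2.12 ± 1.11 with aluminium alone (adjusted p = 0.366) for CYP82A3 on Gma.3136.1.S1_at. No member passed it in either treatment, beside 0.992% of soybean probe sets with magnesium and 2.59% with aluminium alone, so a genotype difference particular to 12 h was not shown. At an unadjusted p under 0.05 the count was 2 of 7 with magnesium and 1 of 7 with aluminium alone. With no share of all soybean probe sets at that threshold beside it, nothing is read from this count.

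**Figure D2:**
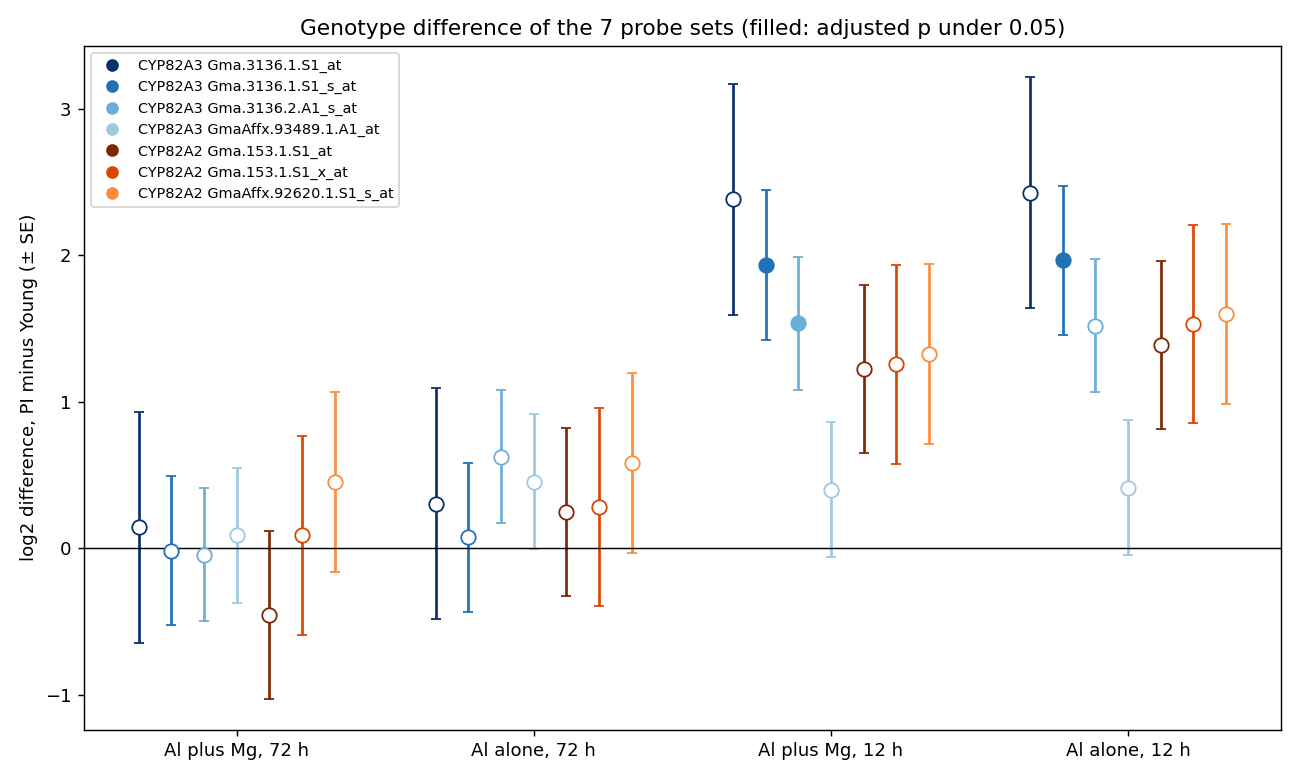
PI minus Young log2 difference of the 7 probe sets (vertical axis, fitted value ± SE from limma) in the 4 conditions (horizontal axis); filled points have an adjusted p under 0.05. The 12 h differences lie between 0.40 and 2.43 and 3 of them are filled, while those at 72 h lie between −0.45 and 0.62 with none filled.

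The magnesium difference was not shown to depend on genotype. At 72 h the PI magnesium difference minus that of Young was −0.70 to −0.09 over the 7 probe sets, with limma adjusted p of 0.706 to 0.982, and none passed, beside 1.45% of soybean probe sets. For CYP82A2 on Gma.153.1.S1_at it was −0.70 with a 95% interval of −2.41 to 1.002, and for CYP82A3 on Gma.3136.1.S1_at −0.16 with an interval of −2.51 to 2.19. Arrays at background bear on these values, and with them set to their bound the CYP82A3 value was 0.11 (adjusted p = 0.966). At 12 h the values were −0.27 to 0.02 and none passed, beside 0.0133%. At either time 0 of the 7 had an unadjusted p under 0.05.

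In some groups the arrays took the same order for both genes. The probe sets for 1 transcript of CYP82A3 and CYP82A2 put the 3 arrays in the same order in 5 of the 8 groups and shared the lowest array in 6 of 8. Replicate 3 of PI and replicate 1 of Young were the lowest for both genes with aluminium alone at 72 h, and they had the highest P450 quality difference, 3′ over 5′, in their groups, at 2.93 and 2.68. The array lowest for the gene had the highest such difference of its group in 5 of 8 groups for CYP82A3 and in 5 of 8 for CYP82A2. The part of RNA quality in the order of the arrays was not tested.

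The third CYP82A gene with a probe set was CYP82A4, listed under a locus name with that synonym and read by GmaAffx.92388.1.S1_s_at, whose probes can match related transcripts. At 72 h the PI arrays read 2.96, 2.72 and 3.28 with aluminium plus magnesium and 11.38, 12.01 and 10.17 with aluminium alone. The Young arrays read 2.69, 2.64 and 3.25 with aluminium plus magnesium and 8.04, 9.08 and 8.82 with aluminium alone. CYP82A4 fell with magnesium to background on 2 of 3 arrays in each genotype, at least 265-fold in PI (limma adjusted p = 1.26e-08) and at least 52.1-fold in Young (adjusted p = 4.73e-07). Unlike the CYP82A2 and CYP82A3 probe sets, CYP82A4 passed between the genotypes with aluminium alone at 72 h, higher in PI by 2.54 ± 0.56 (adjusted p = 0.00632). It was also higher in PI at 12 h, by 3.07 with aluminium plus magnesium (adjusted p = 0.00209) and by 2.24 with aluminium alone (adjusted p = 0.0301). Whether its genotype differences exceed those of CYP82A2 and CYP82A3 was not tested. CYP82C1, the other CYP82 gene in the table, was at background on all 24 arrays.

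Most other P450 genes did not share the large magnesium difference. Of 30 other P450 genes, each read by its probe set of highest mean, 9 fell and 4 rose with magnesium in PI at 72 h and 17 did not pass (limma adjusted p under 0.05), beside 13.0% of soybean probe sets lower and 20.7% higher. In Young 10 fell, 8 rose and 12 did not pass, beside 16.3% lower and 23.1% higher, and the 8 were 4 without replicate 3 with magnesium or without replicate 2 with aluminium alone. The median difference of the list was 0.01 in PI and −0.11 in Young, beside 0.06 and 0.03 over all soybean probe sets. Falls passed in both genotypes for 7 of the genes and rises for 4. At 12 h none of the 30 passed between the treatments in limma, beside 0.0293% of soybean probe sets in PI and 0.0293% in Young. At an unadjusted p under 0.05 the count was 1 in PI and 5 in Young, with no share of all soybean probe sets beside it. Of the 30 genes 4 were at background on every array.

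Of the 7 other P450 genes that fell in both genotypes, CYP71D8, CYP93A1, CYP83D1 and CYP76O2 fell most beside CYP82A4. CYP71D8 was at least 641-fold lower with magnesium in PI (limma adjusted p = 9.88e-11) and at least 469-fold in Young (adjusted p = 1.81e-10). CYP93A1, a pterocarpan hydroxylase on the path to the soybean phytoalexin glyceollin, fell by 6.41 ± 0.43 log2 units in PI and fell by 6.28 in Young. CYP83D1 fell by 4.69 or more in PI and fell by 5.23 in Young, and CYP76O2 fell by 3.67 in PI and fell by 4.61 in Young. The time courses of these genes differed from those of CYP82A2 and CYP82A3 in places. CYP83D1 averaged 8.11 in PI with aluminium alone at 72 h and 3.69 at 12 h, close to background, and CYP76O2 averaged 7.86 in PI with aluminium alone at 72 h and 10.13 at 12 h. The rises were small: CYP74A1, of the allene oxide synthase family that feeds jasmonate synthesis, rose by 1.06 in PI and 1.50 in Young. CYP90A15, of a brassinosteroid family, rose by 1.20 in PI and 1.07 in Young, and CYP97C10, of a carotenoid hydroxylase family, by 0.77 in PI and 1.03 in Young. IFS1, an isoflavone synthase, averaged 14.43 with aluminium plus magnesium and 14.41 with aluminium alone in PI at 72 h. IFS2, the other isoflavone synthase of the list, was among the 7 genes that fell in both genotypes. It fell by 1.48 in PI (limma adjusted p = 8.6e-05) and by 1.27 in Young (adjusted p = 0.000246).

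**Figure D3:**
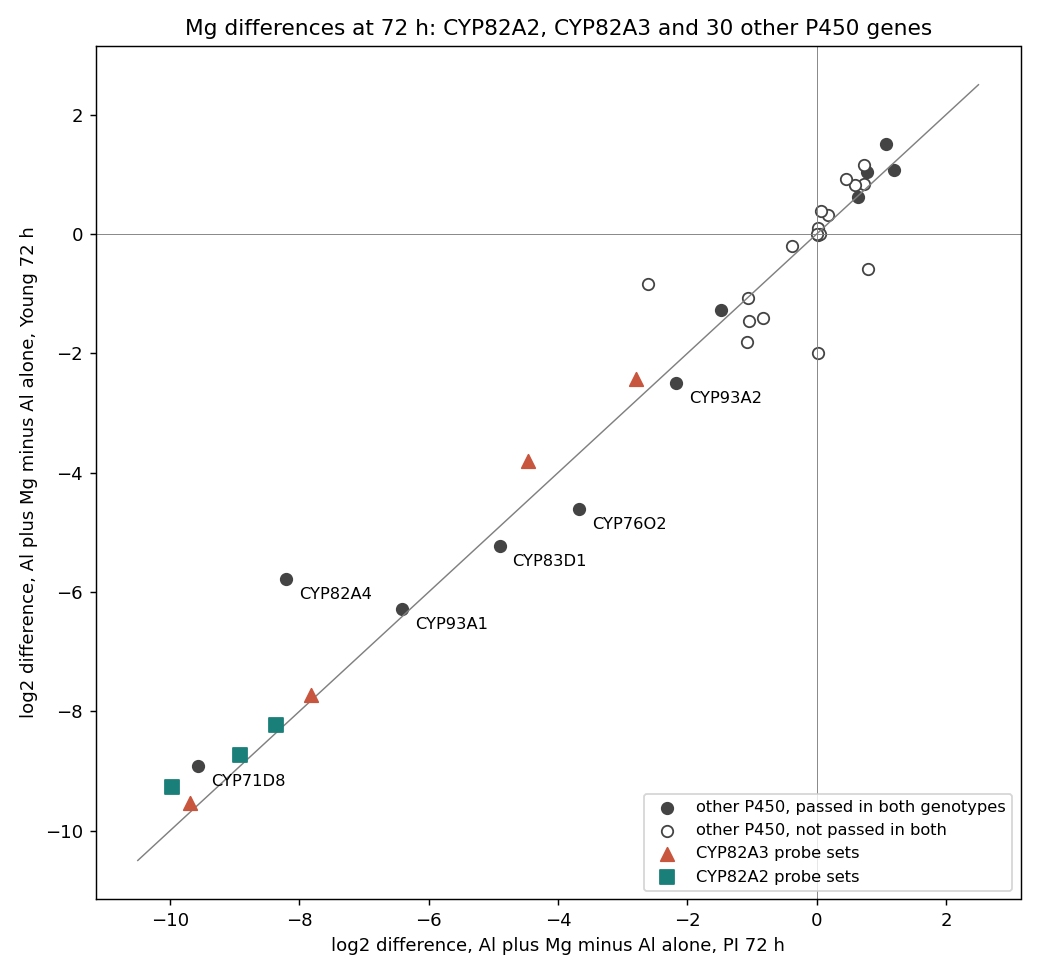
Log2 difference of aluminium plus magnesium minus aluminium alone at 72 h in PI (horizontal axis) and Young (vertical axis) for the 7 CYP82A3 and CYP82A2 probe sets and 30 other P450 genes; filled circles passed in both genotypes, and the diagonal marks equal differences. The CYP82A2 probe sets and 2 CYP82A3 probe sets lie at the lower left with CYP71D8, and most other P450 genes lie near 0.

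The genes most like CYP82A3 and CYP82A2 over the groups were sought among 919 of the 6031 genes, those above the signal filter with a symbol other than a locus number. Likeness was the root mean square difference of the 8 group means after each profile was centred on its own mean, a description with no test. CYP82A3 and CYP82A2 were each read by their probe set of highest mean, not by one designed for 1 transcript. Probes of both these probe sets can match other transcripts. CYP82A3 on Gma.3136.1.S1_s_at was nearest to PT01, a prenyltransferase of glyceollin synthesis, at 0.43, then to the transcription factor genes WRKY17 at 0.47 and WRKY53 at 0.58, to AOX1, a mitochondrial alternative oxidase, at 0.65 and to CYP93A1 at 0.89. CYP82A2 on Gma.153.1.S1_x_at had the same 5 genes nearest, with PT01 at 0.28, WRKY17 at 0.69, AOX1 at 0.88, WRKY53 at 0.89 and CYP93A1 at 0.95. The distance between CYP82A3 and CYP82A2 themselves was 0.55. CYP71D8 and CYP82A4 stand in the name table under locus numbers and so were not among the genes searched. CYP71D8 lay 1.16 from CYP82A3 and 0.76 from CYP82A2, nearer to CYP82A2 than AOX1, WRKY53 and CYP93A1, and CYP82A4 lay 0.98 from CYP82A3 and 1.10 from CYP82A2. PT01 averaged 2.38 in PI and 2.43 in Young with aluminium plus magnesium at 72 h, against 11.12 in PI and 10.97 in Young with aluminium alone, so its low values were at background.

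**Figure D4:**
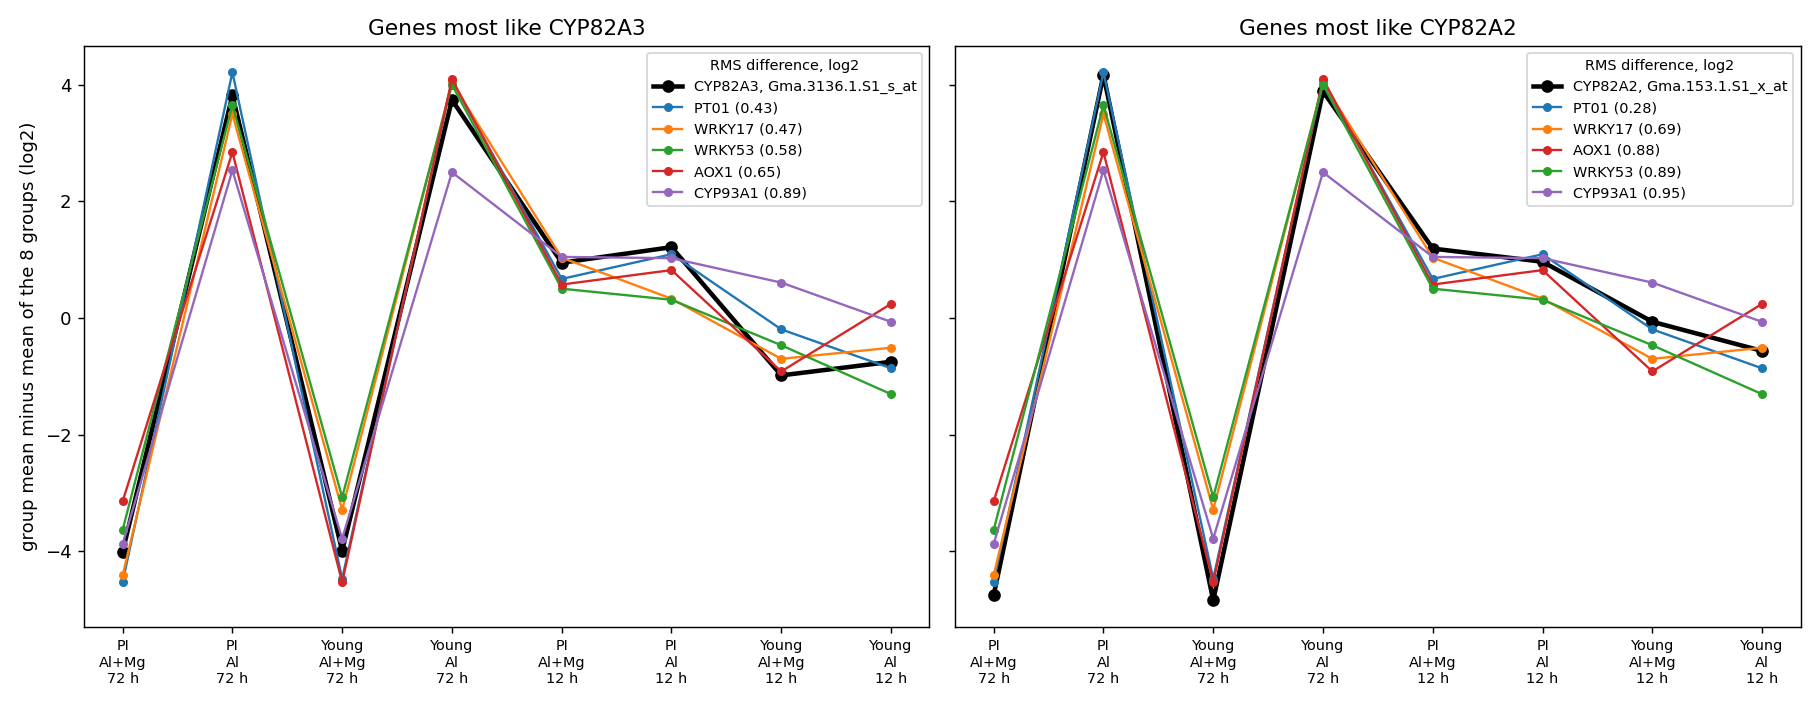
Group means of CYP82A3 and CYP82A2 (thick black lines) and of the 5 genes nearest to each among the 919 searched (thin lines), each profile centred on its own mean over the 8 groups, in log2 units (vertical axis), by group (horizontal axis). The profiles share the low 72 h points with magnesium and the high 72 h points with aluminium alone, and the root mean square differences stand in the legends.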

How the data were processed

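The authors deposited linear intensities, 1 for each array and probe set. How background, probe summary and normalization were handled to make them is not given in the sources used here. RNA was labelled with biotin from an oligo-dT primer, per the labels' protocols. Values were floored at 1 and taken to log2, and each deposited column was matched to an array by its label. The number of arrays limits the precision.

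Groups came from the labels. One limma 3.58.1 model (R 4.3.3) fitted 8 group means to the 24 arrays, with 16 residual and 1.13 prior degrees of freedom. P-values were adjusted by Benjamini-Hochberg over 37593 soybean probe sets within each comparison, at a threshold of 0.05. Counts at an unadjusted p under 0.05 are given without the share over all soybean probe sets. The model was tested on simulated data.

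Background came from 23350 probe sets for Phytophthora sojae and Heterodera: an array's bound was their 99th percentile on it and the signal filter the 95th percentile of their means, 2.39. Folds with arrays at background were computed with those arrays at their bound.

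Names came from the array's annotation, which pairs 8677 probe sets with 1 gene, 370 with several and leaves 28546 unnamed, updated through assembly Glycine_max_v4.0. The members and gene lists were chosen with earlier results of these data known. Other P450 genes had a symbol or synonym of CYP or IFS form. Genes with a symbol or synonym starting AOS were kept out of that list, and AOS1 and AOS2 were counted with the jasmonate genes. The 13 CYP symbols of cyclophilins were left out after the name table was seen, which narrowed the written rule. Genes named from that list were all CYP82 genes, the 5 deepest falls and the 3 steepest rises at 72 h among those passing in both genotypes. IFS1 and IFS2 were added after their values were seen. No P450 reductase or other redox partner symbol was found. Alternatives changed the signal filter, the probe sets tested, the normalization, the variance model, the arrays in the fit, a replicate block, an offset before log2 and each array in turn.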

Additional observations from a re-analysis of the deposited data

How the results depend on the processing

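Replicate numbers did not pair the arrays: the correlation of deviations between same-numbered arrays had a median of −0.03 over 84 pairs, from −0.43 to 0.41, and 8 of 24 arrays correlated best with their own number. With the replicate number as a block, the CYP82A3 genotype difference on Gma.3136.1.S1_at with aluminium plus magnesium at 12 h passed (2.38, limma adjusted p = 0.0435), and it also passed with the signal filter (2.38, adjusted p = 0.042), with an offset of 32 before log2 (2.30, adjusted p = 0.0249) and with arrays at background set to their bound, an alternative chosen after seeing the data (2.38, adjusted p = 0.0369). With the offset the same difference with aluminium alone passed too (2.35, adjusted p = 0.0462). The count of probe sets passing with aluminium alone at 12 h was 0 when probe sets of other organisms were tested as well, 2 with the offset and 0 with only the arrays compared. With aluminium plus magnesium at 12 h it was 1 with those added probe sets and 0 with only the arrays compared. The genotype difference of the CYP82A3 magnesium effect at 72 h changed sign to 0.11 with arrays at their bound.

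With the offset of 32, which shrinks differences of faint signals, the 72 h magnesium differences were −7.58 for CYP82A2 and −7.81 for CYP82A3 in PI, and −7.21 and −7.61 in Young. The time differences with magnesium then were −4.45 for CYP82A2 and −5.77 for CYP82A3 in PI, and −3.17 and −3.59 in Young. Of 342 values under settings other than left-out arrays, 323 kept their direction and side of the threshold or stayed within the spread between arrays.

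Leaving out 1 array at a time, the CYP82A3 difference with magnesium at 12 h was 1.90 to 2.90 (adjusted p = 0.0461 to 0.177) and passed without PI replicate 1 or Young replicate 3. The count passing was 0 to 3 with magnesium and 0 to 1 with aluminium alone. The count of other P450 genes higher with magnesium in Young at 72 h was 4 to 8. Differences near 0 changed sign in places: between genotypes at 72 h, −0.40 to 0.75 for CYP82A3 and −0.13 to 0.52 for CYP82A2 with aluminium alone, and −0.64 to 0.85 and −0.70 to 0.011 with magnesium; for the genotype difference of the magnesium effect, −0.94 to 0.54 for CYP82A3 at 72 h, and −0.53 to 0.54 for CYP82A3 and −0.57 to 0.37 for CYP82A2 at 12 h. The cause of these shifts was not tested.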

Other observations

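In the name table CYP82A2 and CYP82A3 lie on the same chromosome with 2164 genes between them. Of the 3 genes on each side, looked up after the values were seen, 1 neighbour of CYP82A2 and 2 of CYP82A3 had a probe set. LOC100799073, next to CYP82A2, had a magnesium difference at 72 h of −1.18 in PI (limma adjusted p = 0.103) and fell by 1.66 in Young (adjusted p = 0.0199). LOC100500384, the third gene on one side of CYP82A3, averaged 5.59 with aluminium plus magnesium and 9.67 with aluminium alone in PI at 72 h, and 6.08 with aluminium plus magnesium and 9.96 with aluminium alone in Young. It fell by 4.09 in PI (adjusted p = 1.90e-06) and fell by 3.87 in Young (adjusted p = 2.23e-06). FTRC, a ferredoxin-thioredoxin reductase gene whose span overlaps that of LOC100500384 in the table, did not pass, with a difference of 0.44 in PI (adjusted p = 0.0543) and one of 0.43 in Young (adjusted p = 0.0539). PT01, the nearest to CYP82A2 and CYP82A3 among the 919 genes searched for likeness, lies on the same chromosome as CYP82A4 with 5 genes between them.

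Jasmonate and ethylene genes, 20 in the table, mostly did not pass. In PI at 72 h 4 fell and 1 rose with magnesium, beside 13.0% of soybean probe sets lower and 20.7% higher. In Young 4 fell and none rose, beside 16.3% lower and 23.1% higher. Of the 20 only AOS2, an allene oxide synthase, passed in both, and it fell by 1.98 in PI (limma adjusted p = 0.00105) and fell by 1.68 in Young (adjusted p = 0.00285). CYP74A1, of the same enzyme family but counted among the P450 genes here, went the other way. It rose by 1.06 in PI (limma adjusted p = 0.00048) and by 1.50 in Young (adjusted p = 1.2e-05). At 12 h none of the 20 passed between the treatments in limma, beside 0.0293% of soybean probe sets in PI and 0.0293% in Young. At an unadjusted p under 0.05 the count was 0 in PI and 2 in Young, with no share of all soybean probe sets beside it.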
